A study of Mus musculus with 30 samples.

Results

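Adipoq, Plin1, Cidec, Lep, Cfd, Fabp4, Pparg and Car3 are genes that fat cells are known to express, and their transcripts were followed in the mouse digit tip over 9 time points after amputation. These 8 genes were chosen by symbol, as adipocyte genes of the digit pad, from the 20321 genes of the tables. They were measured by bulk RNA-seq in 30 mice, 1 library a mouse, with 6 mice at 7 d and 3 at every other time (0, 3, 6, 12 and 24 h, and 3, 14 and 21 d). All were adult male C57Bl/6 mice, for which no transgene or other treatment is named, and all, the 0 h mice included, had lost at most 33% of the distal phalanx (P3) of digit 3 of a hindlimb, so no uncut digit serves as a control. A regenerating P3 is a mixture of epidermis, nail, dermis, vessels, marrow, bone and pad. The surgical methods name the footpad beside the distal phalanx in what was dissected at the amputation, and do not say how much pad a collected sample held. In such bulk RNA, fewer fat cells and less RNA per fat cell cannot be told apart.

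A white adipocyte stores triglyceride in a large lipid droplet and releases fatty acids and hormones. The nuclear receptor PPAR gamma, made from Pparg, drives its differentiation together with C/EBP factors and switches on most of the other genes named here. Adiponectin (Adipoq), leptin (Lep) and adipsin (Cfd, complement factor D) are secreted. Perilipin 1 (Plin1) and CIDEC (Cidec) coat the droplet, FABP4 carries fatty acids in the cytosol, and carbonic anhydrase 3 (Car3) is an abundant cytosolic enzyme of fat. Some of these genes are also known in other cells, Fabp4 in capillary endothelium and macrophages, Car3 in skeletal muscle and Pparg in sebocytes.

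The libraries held 3167625 to 16277816 expected counts (median 6103688), where an expected count is the number of reads assigned to a gene by a model that shares ambiguous reads. Dates in the sample titles fall into an earlier set of 16 mice and a later set of 14, with median totals of 5083528 and 9836324. The 3 h and 12 h mice were all earlier and the 21 d mice all later, while the other 6 times held mice of both sets. At 7 d, 3 mice had the left foot amputated and all other mice of the study the right. Mouse 3 at 7 d, a left-foot mouse of the later set, stood apart with the fewest genes with a count, 12191 against 12945 to 15538 in the others. The same title code and date stand on 1 mouse at 0 h and 1 at 12 h, and what the code means is not given in the sources used here. No 2 libraries of the same time looked like repeats of one another, since the 39 pairs had 9.43 to 94.9 times the chi-square that sampling of reads alone would give. The 0 h and 12 h libraries with the shared code, being of different times, were not compared in this way.

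Promoter sequences are shown for the genes on which the identity of the tissue turns: Adipoq as the defining adipocyte hormone, Lep as a hormone that was counted in only 8 mice, and the downstream start of Pparg, which is known to give the adipocyte form PPAR gamma 2. RefSeq promoters (GRCm38.p6, 5′ to 3′ on the strand of the gene, with the start site near the end of each run) were at hand for 6 of the 8 genes, while Fabp4 and Car3 are named only. Capitals mark matches, on either strand, to the letters TATAA (in 24.9% of all 32851 promoters), CCAAT (37.4%), AGGTCA, an element that PPAR gamma binds in pairs (16.3%), and TTGCGCAA, a C/EBP palindrome (0.183%).
Adipoq, chr16:23146286-23146585, plus strand: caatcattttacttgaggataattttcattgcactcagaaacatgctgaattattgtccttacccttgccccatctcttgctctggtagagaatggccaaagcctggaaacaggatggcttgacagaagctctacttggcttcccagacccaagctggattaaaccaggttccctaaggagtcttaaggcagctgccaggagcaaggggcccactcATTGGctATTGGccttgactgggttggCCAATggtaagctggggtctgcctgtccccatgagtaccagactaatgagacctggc
Lep, chr6:29059971-29060270, plus strand: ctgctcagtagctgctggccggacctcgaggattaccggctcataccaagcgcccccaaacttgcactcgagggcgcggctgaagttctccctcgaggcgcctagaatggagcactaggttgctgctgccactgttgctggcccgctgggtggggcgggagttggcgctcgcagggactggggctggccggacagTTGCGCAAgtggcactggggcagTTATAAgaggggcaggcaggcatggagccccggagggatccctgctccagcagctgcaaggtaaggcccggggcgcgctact
Pparg, downstream start, chr6:115421816-115422115, plus strand: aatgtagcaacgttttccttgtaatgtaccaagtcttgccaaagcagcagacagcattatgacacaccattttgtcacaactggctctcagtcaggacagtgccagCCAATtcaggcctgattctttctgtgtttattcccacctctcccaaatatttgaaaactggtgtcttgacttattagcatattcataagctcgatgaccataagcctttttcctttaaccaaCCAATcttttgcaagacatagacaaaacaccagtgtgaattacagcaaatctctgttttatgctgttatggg

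Adipoq held CCAAT 3 times, once on the plus and 2 times on the minus strand, from 34 to 7 bases before the start site. Lep held the C/EBP palindrome 55 bases and TATAA 31 bases before the start site, and TATAA also read on the minus strand 1 base further out, so that those matches overlap. The downstream start of Pparg held CCAAT 144 and 22 bases before it. AGGTCA pairs spaced by 1 base, found in 0.0396% of promoters, were in none of the promoters of the 6 genes. Upstream windows of Pparg, which are not shown, held AGGTCA 28 bases (window from 115360894) and 9 bases (window from 115362099) before the start site. The window from 115362099 also held TATAA and CCAAT. Those of Cfd, Plin1 and Cidec held none of these letters. A match describes the letters of a window and is not a site of binding. The Pparg counts add the transcript from the downstream start (Pparg-201, start 115422066) to one from an upstream start (Pparg-202, start 115360951), so the tables cannot separate the adipocyte form.

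Reads of these genes could be told from those of other genes. On GRCm38, Adipoq lies on chromosome 16 (23146536 to 23158028), Lep on chromosome 6 (29060220 to 29073877), Cfd on chromosome 10 (79890853 to 79892655) and Fabp4 on chromosome 3 (10204088 to 10208576). Car3 (14863512 to 14872523) is also on chromosome 3, Plin1 (79720218 to 79732903) on chromosome 7, and Cidec (113424634 to 113435760) and Pparg (115360951 to 115490399) on chromosome 6. All are protein coding and no exon of theirs overlaps an exon of another gene. Of all stretches of 65 bases, the read length, in the 10 transcripts that the tables count, 0 matched a transcript of another gene with at most 2 mismatches.

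The genes that define a fat cell were close to the limit of detection, while the fatty acid carrier was abundant. Compared per transcript length, in TPM (transcripts scaled to the same total in each mouse), Fabp4 was highest with a mean of 171 ± 61.9 TPM (SD, n = 30). Cfd followed with 22.9 ± 19.8 TPM and Car3 with 13.5 ± 7.91 TPM. Adipoq stood at 2.59 ± 2.52 TPM, Pparg at 0.986 ± 1.24 TPM and Plin1 at 0.853 ± 1.32 TPM. Lep and Cidec were lowest, with means of 0.189 and 0.145 TPM and a median of 0.

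Fabp4 thus had 66.0 times the mean TPM of Adipoq and made up 64.2 to 93.7% (median 81.2%) of the summed TPM of all 8 genes in a mouse. A sum over the 8 genes is therefore mostly a reading of Fabp4. It ran from 140.1 to 259.7 TPM at 0 h, was highest at 12 h (282 to 411 TPM) and lowest at 21 d (50.8 to 126 TPM). Fabp4 itself was small beside its epidermal relative Fabp5, whose mean TPM was 68.4 times higher. The summed markers of keratinocytes reached 34837 to 118777 TPM in these mice. The label of the tissue as holding pad fat thus rests on few reads, and RNA from the whole digit does not place them in the pad.

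**Figure D1:**
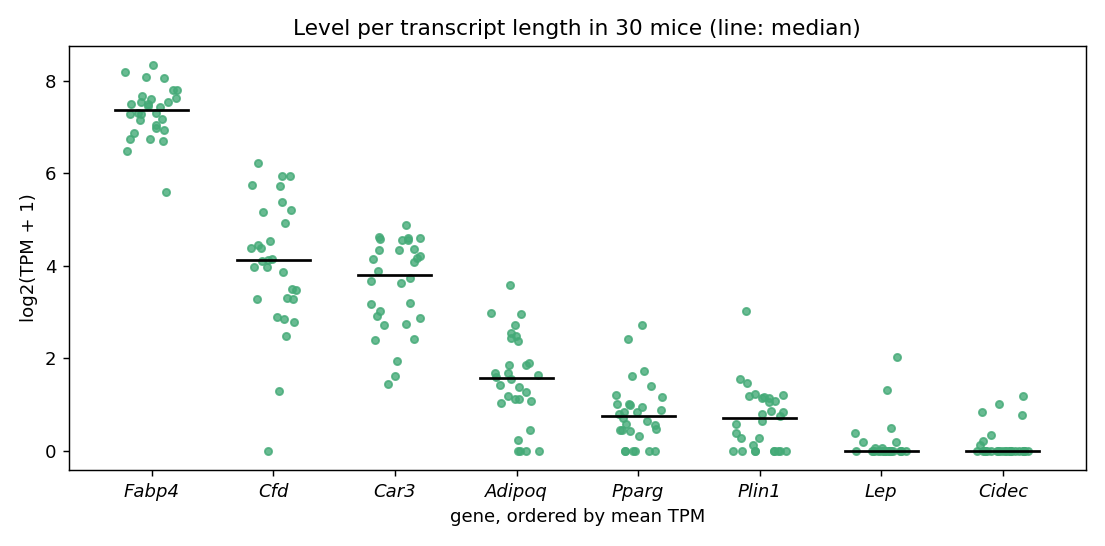
Level of the 8 adipocyte genes in 30 mice as log2(TPM + 1), with 1 point per mouse and the median as a line, genes ordered by mean TPM. Fabp4 lies above the other genes in every mouse, and Lep and Cidec have a median of 0.

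Among the hormones, leptin was almost not counted. Lep had 53 counts over all mice, and 22 of 30 mice had none. At 7 d, 2 mice held most of them: mouse 3 had 30 and mouse 2 had 11, while the other 4 mice had 0. Outside 7 d the highest count was 4, in a 12 h mouse. The 3 h, 24 h, 3 d and 14 d mice all had 0. At the shallowest of those, 3 counts, the floor used here, are worth 1.084 CPM (counts scaled to the TMM-normalized library size).

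Droplet coat genes were nearly as sparse. Plin1 had 155 counts in all, and was found in 21 mice. All 3 mice at 0 h carried it, with 14, 11 and 10 counts. At 7 d its counts ran from 0 over a median of 3 to 39, the highest again in mouse 3, which held 25.2% of all Plin1 counts. At 21 d they were 0, 3 and 9. Cidec, which helps droplets fuse, had 20.52 counts in 7 mice. The 0 h mice had 1, 5.52 and 6 of these, and no mouse at 12 h, 24 h, 7 d or 14 d had any. Plin1, Cidec and Lep did not pass the filter on low counts and were not tested. With no filter, their adjusted p over the time course (edgeR quasi-likelihood F-test over 17169 genes) were 0.749 for Plin1, 0.279 for Cidec and 0.154 for Lep.

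**Figure D2:**
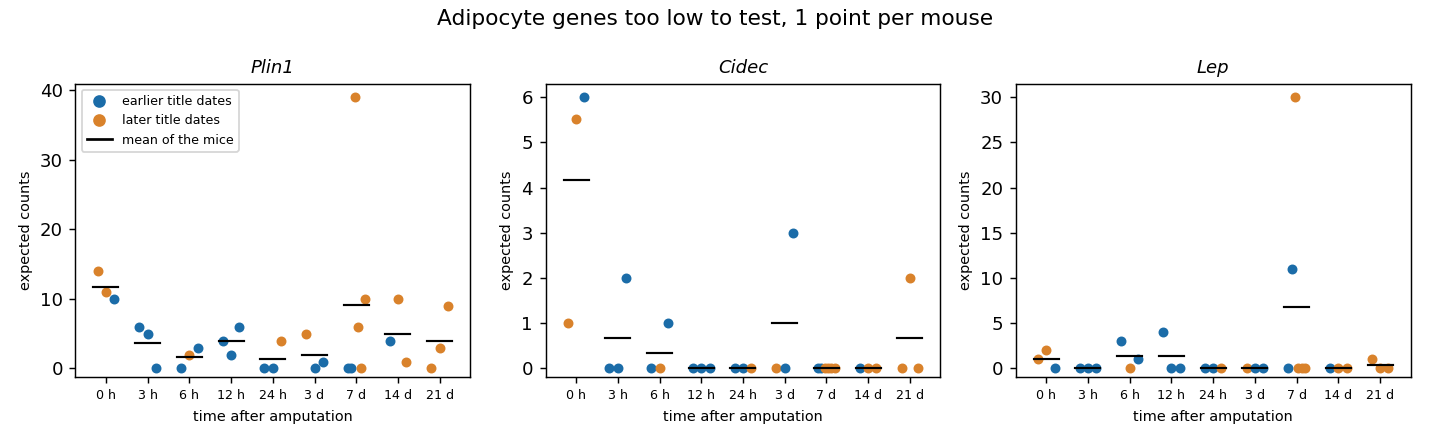
Expected counts per mouse of Plin1, Cidec and Lep, the adipocyte genes too low to test, by time after amputation, with 1 point per mouse coloured by the earlier or later title dates and a line for the mean. Cidec counts lie mostly at 0 h, and the highest Plin1 (39) and Lep (30) values are from the same 7 d mouse.

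Adipoq, Cfd, Fabp4, Pparg and Car3 passed the filter and were tested among 13793 genes. These 5 are the ones with enough reads and not a sample of the 8. None of the 5 reached an adjusted p of 0.05 in the F-test over all times (edgeR quasi-likelihood test, Benjamini-Hochberg over all genes tested), a test that 9.01% of all genes passed. The adjusted p were 0.0702 for Car3, 0.0904 for Cfd, 0.115 for Fabp4, 0.239 for Adipoq and 0.363 for Pparg. Car3, Cfd and Fabp4 had an unadjusted p under 0.05. DESeq2 called Car3 (adjusted p = 0.00858) and Fabp4 (0.0258), and limma on log2(TPM + 1) called Cfd (0.0307) and Fabp4 (0.0227). The 9.01% holds for the adjusted edgeR test alone. No share of all genes is given, here or below, for an unadjusted p under 0.05 in this F-test. The same holds for the calls by DESeq2 and limma, so these counts cannot be set against all genes.

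The call of Car3 also depended on the mice. Its adjusted p fell to 0.0492 without mouse 1 at 6 h, 0.0170 without mouse 1 at 3 d, 0.0245 without mouse 2 at 7 d and 0.0443 without mouse 3 at 21 d. Cfd reached 0.0403 without mouse 3 at 3 d and 0.0220 without mouse 3 at 21 d. The spread between mice was wide for the adipocyte hormones: the fitted biological coefficient of variation was 0.819 for Adipoq, higher than in 92.7% of the genes tested, 0.774 for Pparg, 0.684 for Cfd, 0.485 for Car3 and 0.307 for Fabp4.

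**Figure D3:**
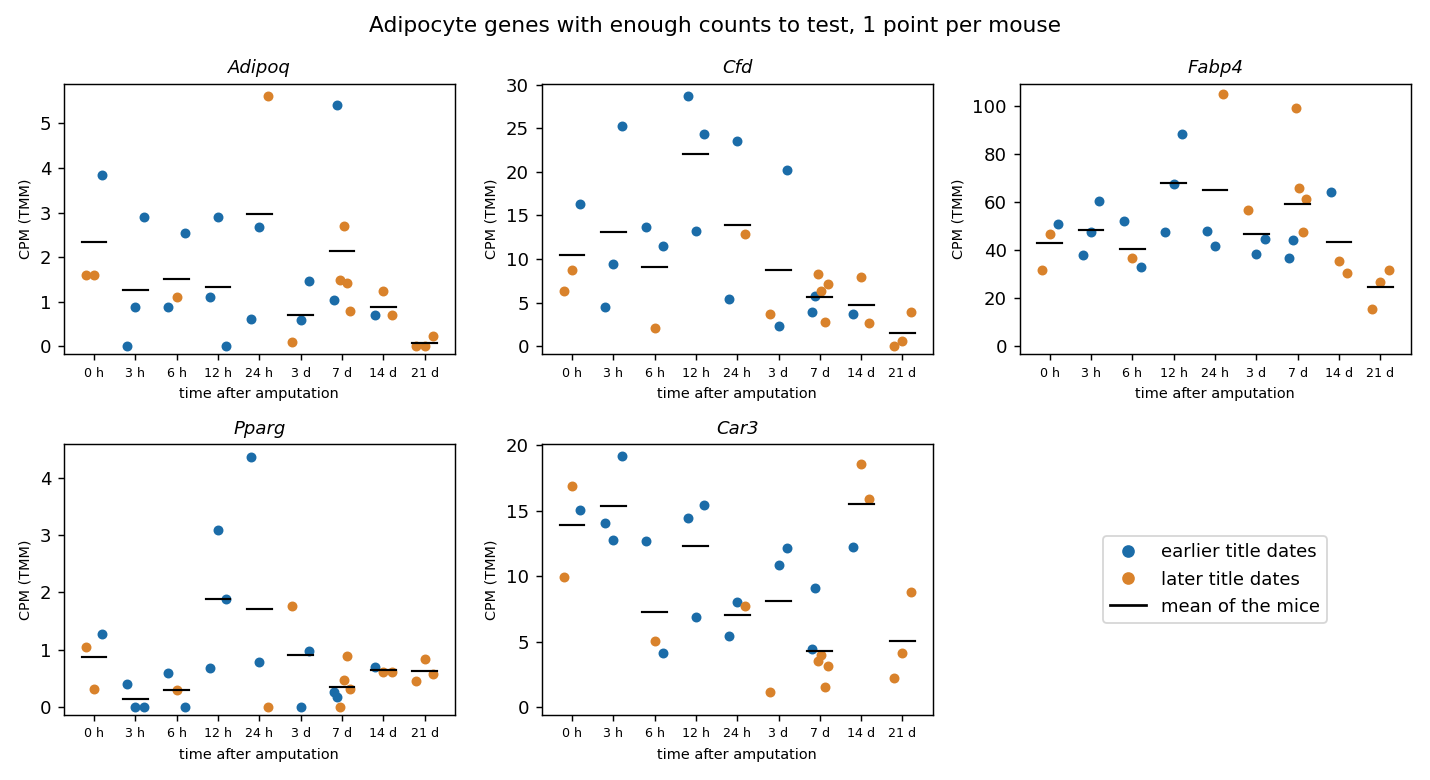
TMM-normalized CPM of Adipoq, Cfd, Fabp4, Pparg and Car3 by time after amputation, with 1 point per mouse coloured by the earlier or later title dates and a line for the mean of each time. Adipoq, Cfd and Fabp4 have their lowest mean at 21 d, where all mice are of the later set.

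Adiponectin was lowest at 21 d. At 0 h the mice had 1.60, 1.60 and 3.84 CPM (20, 15 and 24 counts). At 7 d the level ran from 0.791 over a median of 1.44 to 5.40 CPM (4 to 32 counts). At 21 d the mice had 0, 0 and 0.228 CPM (0, 0 and 2 counts), and the counts of 0 allow up to 0.278 and 0.193 CPM. All 21 d mice thus lay below all 0 h and all 7 d mice.

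Pooled over mice, Adipoq had 59 counts at 0 h and 2 at 21 d, a ratio per read of 38.9 (95% exact counting interval 10.3 to 328). Against 7 d, with 77 counts, the ratio was 40.3 (10.8 to 339). These intervals cover counting error only and not the spread between mice. The test over mice missed the threshold, at an adjusted p of 0.0840 against 0 h and 0.0753 against 7 d, with unadjusted p of 0.00191 and 0.00158. Leaving out mouse 3 of 21 d, the only 21 d mouse with counts, gave an adjusted p of 0.0482 against 0 h. Without mouse 3 at 0 h it was 0.275, and without mouse 1 or 2 of 21 d 0.537 and 0.352. DESeq2 gave 0.0112 against 0 h and 0.00790 against 7 d, and limma on log2(TPM + 1) gave 0.190 and 0.131, with a log2 change of -2.07 against 0 h where edgeR had -4.86.

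Before 21 d Adipoq had no clear order. Its mean was highest at 24 h, 2.97 ± 2.51 CPM (SD, n = 3), from mice at 0.623, 2.67 and 5.61 CPM. Mice at 3 d (0.0983, 0.588 and 1.46 CPM) and at 14 d (0.693, 0.706 and 1.23 CPM) also lay below every 0 h mouse. The share of all genes lying apart in this way at 3 d or 14 d is not given here. The fitted log2 changes of Adipoq against 0 h were -1.79 (SE 1.22) at 3 d and -1.38 (SE 1.14) at 14 d. Neither was called (edgeR adjusted p = 0.945 and 0.894). Times next to each other in the order of means, from 24 h over 0 h, 7 d, 6 h, 12 h, 3 h, 14 d and 3 d down to 21 d, overlapped in all 8 neighbouring pairs.

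Adipsin, the other hormone with counts enough to test, had its highest mean at 12 h and its lowest at 21 d. At 0 h the 3 mice had 6.40, 8.74 and 16.3 CPM of Cfd. They had 28.7, 13.2 and 24.4 CPM at 12 h. At 21 d they had 0, 0.644 and 3.99 CPM (0, 10 and 35 counts), all below the 0 h mice. The 12 h and 0 h mice overlapped.

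The log2 change of Cfd at 21 d against 0 h was -2.82 (SE 0.90, adjusted p = 0.143). Without mouse 3 of 21 d it was -4.80 with an adjusted p of 0.0119, so that this mouse set the call. Without mouse 3 at 0 h or mouse 1 or 2 at 21 d the adjusted p was 0.494, 0.724 and 0.487. At 12 h the change was 1.09 (SE 0.81, adjusted p = 0.778). Between 7 d (2.82 to 8.31 CPM, median 6.04) and 21 d the log2 change was -1.95 (SE 0.83, adjusted p = 0.299).

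The fatty acid carrier gave the only call among the 5 genes in any of the 9 pairwise contrasts. Fabp4 ran from 36.8 over a median of 54.5 to 98.97 CPM at 7 d and stood at 15.4, 26.6 and 31.9 CPM at 21 d. No 21 d mouse reached the lowest 7 d mouse. The log2 change was -1.26 (SE 0.33, adjusted p = 0.0466), a level 2.40 times lower at 21 d. Across the genes tested, 1.46% were called in this contrast, in which 3 of the 5 adipocyte genes (Adipoq, Cfd and Fabp4) had an unadjusted p under 0.05, as did 12.3% of all genes.

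This call sat at the edge of the threshold. With each of the 30 mice left out in turn, the adjusted p ran from 0.0248 to 0.411 and the call was kept in 17 cases. It was lost without mouse 2 or 3 at 0 h, mouse 2 at 3 h, mouse 3 at 6 h, mouse 2 at 12 h, mouse 3 at 3 d, mouse 3, 4, 5 or 6 at 7 d, mouse 2 at 14 d, and mouse 1 or 2 at 21 d. The left-foot mice included the highest 7 d value, and without the 3 of them the log2 change was -0.83 (adjusted p = 0.263). Without mouse 3 of 7 d, which stood apart in its number of genes, the log2 change was -1.06 (adjusted p = 0.0988). With the later mice alone, the adjusted p was under 0.05 for Fabp4 and for Adipoq (0.0390).

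The other times of Fabp4 were closer to each other. The 0 h mice had 31.7, 46.8 and 50.7 CPM, and the highest mean was at 12 h, 67.7 ± 20.2 CPM (SD, n = 3). In the order of its means, 7 of 8 neighbouring pairs overlapped, and 21 d stood apart from 6 h, the next lowest. Against 0 h the 21 d change was -0.80 (SE 0.36, adjusted p = 0.459). Capillary endothelium, in which Fabp4 is also known, had summed marker levels of 180.1 to 343 TPM at 7 d and 154 to 172 TPM at 21 d, and 1 of its 11 markers, Vwf, was called lower at 21 d (chosen for naming after its value was seen). Macrophages, in which Fabp4 is also known, had summed marker levels of 611 to 2580 TPM at 7 d and 489 to 662 TPM at 21 d. Of their 9 markers tested, 1, Csf1r, was called lower at 21 d against 7 d (edgeR adjusted p = 0.0439). The part of vessels or macrophages in the Fabp4 call was not tested. From mouse to mouse within a time, Fabp4 and the mean of the endothelial markers had a Pearson r of -0.19 (Spearman rho -0.21, n = 30, permutation p = 0.393 and 0.339, adjusted over 35 such relations 0.824 and 0.742). Within the date sets r had the other sign, 0.445 in 14 earlier and 0.586 in 11 later mice. With the macrophage markers Fabp4 had r = -0.455 and rho = -0.340 (permutation p = 0.0204 and 0.0880, adjusted 0.223 and 0.579). That r was -0.175 in the earlier and -0.734 in the later mice.

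Car3 had its lowest mean at 7 d and its highest at 14 d. It had 9.92, 16.8 and 15.04 CPM at 0 h. At 7 d it ran from 1.54 over a median of 3.74 to 9.11 CPM, all below the 0 h mice. At 14 d it had 12.2, 18.5 and 15.9 CPM, and at 21 d 2.22, 4.12 and 8.78 CPM, again below every 0 h mouse. Of all genes tested, 10.2% lay below 0 h in this way at 21 d, and the share at 7 d is not given here.

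The log2 change of Car3 at 7 d against 0 h was -1.70 (SE 0.50, adjusted p = 0.0674), a level 3.26 times lower by the fit. The adjusted p was 0.0248 without mouse 1 at 3 d, 0.0202 without mouse 2 at 7 d, 0.0231 with the date set as a covariate and 0.0417 in the later mice alone. It was 0.296 without the left-foot mice (log2 change -1.45), 0.271 without mouse 2 and 0.229 without mouse 3 at 0 h, 0.130 with only these times in the fit and 0.124 with limma. At 21 d the change was -1.47 (SE 0.59, adjusted p = 0.343). Skeletal muscle, in which Car3 is also known, had summed marker levels of 26.3 to 204 TPM at 0 h and 17.2 to 41.9 TPM at 7 d. At 14 d, where Car3 was highest, they were 15.9 to 21.97 TPM. None of the 9 muscle markers tested was called over the time course (edgeR, adjusted; 0 also had an unadjusted p under 0.05), and of the 15 listed, 6 were too low to test.

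Pparg, the regulator, was read from few counts. It had 175 counts over all mice and none in 6 of them. At 0 h the mice had 13, 3 and 8 counts, at 3 h 2, 0 and 0, and at 24 h 28, 5 and 0. The highest mean was at 12 h (0.689, 3.08 and 1.89 CPM) and the lowest at 3 h. No contrast approached the threshold, the smallest adjusted p being 0.575 at 3 h, for a log2 change of -2.36 (SE 1.44). At 21 d, when Adipoq and Cfd were lowest, Pparg had 0.463, 0.837 and 0.570 CPM, a log2 change of -0.46 (SE 1.13) against 0 h.

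**Figure D4:**
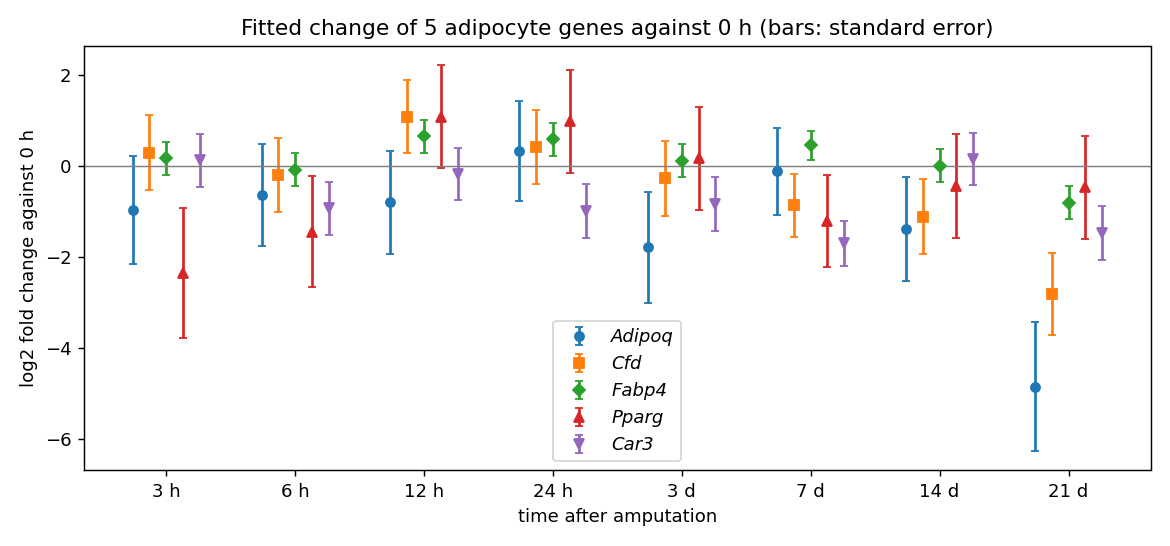
Fitted log2 fold change of the 5 tested genes against 0 h at each later time, with bars of 1 standard error. Adipoq at 21 d (-4.86) and Cfd at 21 d (-2.82) are the lowest points, and no point in the plot passed the test.

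Against 0 h, 0 of the 5 genes were called at any of the 8 later times. The share of all genes called was 0.254% at 3 h, 0.189% at 6 h, 0.167% at 12 h, 0.493% at 24 h, 0.551% at 3 d, 2.34% at 7 d, 1.61% at 14 d and 1.94% at 21 d. With 5 genes, a count of 0 lies at those shares. An unadjusted p under 0.05 was found for 0 of the 5 from 3 h to 3 d and at 14 d, for Car3 at 7 d (13.3% of all genes), and for Adipoq, Cfd, Fabp4 and Car3 at 21 d (9.22% of all genes). DESeq2 called Car3 at 7 d (adjusted p = 0.0334) and Adipoq at 21 d, and limma called none of them. The shares of all genes that these tools called are not given here.

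Counted without a model, 3 of the 5 genes, Adipoq, Cfd and Car3, had every 21 d mouse below every 0 h mouse, as did 10.2% of all genes tested. Against 7 d, 2 of the 5, Adipoq and Fabp4, had every 21 d mouse below every 7 d mouse, beside 2.07% of all genes. The median log2 change of the 5 at 21 d against 0 h was -1.47, and that of all genes -0.0044, a value that the normalization holds near 0 in every contrast. The exact permutation test of 3 mice against 3 cannot give a p below 0.1, so the contrast of 21 d with 0 h cannot pass on its own. Contrasts with 7 d hold more mice, and there the smallest possible p of this test is 0.0238. Adipoq and Fabp4 at 21 d against 7 d reached it, as did Car3 at 7 d against 0 h. The other results in the contrasts with 7 d did not. Adjusted over the 45 exact comparisons, each of those that reached it had 0.357, so none passed.

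All 21 d mice were of the later set. Within that set, the 21 d differences of mean log2(CPM + 1) of Adipoq, Cfd and Fabp4 had the same direction as over all mice. Both use the same 21 d mice, and the values over all mice only add the earlier mice of the other time. Their closeness was thus partly fixed in advance and does not measure the part of the date set. For Adipoq at 21 d against 0 h the difference was -1.28 in the later mice (3 against 2) and -1.58 over all. Cfd had -2.07 and -2.42. The earlier 0 h mouse, left out within the later set, was the highest 0 h mouse for both genes (3.84 and 16.3 CPM). For Fabp4 at 21 d against 7 d the difference was -1.45 in the later mice (3 against 4) and -1.21 over all. Car3 at 7 d against 0 h gave -1.83 in the later mice (4 against 2) and -1.12 in the earlier ones (2 against 1). Whether time acted differently in the earlier and later sets was tested in 21 mice of the 6 times that held both. None of the 4 adipocyte genes that could be fitted was called, beside 0.883% of 13587 genes. Fabp4 had the smallest p there (unadjusted 0.00363, adjusted 0.122), with a difference of 0.76 at 7 d against 0 h in the later mice and -0.33 in the earlier.

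No pair of the adipocyte genes was shown to move together from mouse to mouse over all 30 mice, in a test that did not remove the date set. After the mean of each time was removed from log2(CPM + 1), 0 of the 10 pairs passed a permutation test adjusted over the 10. The strongest pair was Cfd and Car3 (r = 0.522, rho = 0.577, permutation p = 0.0382 and 0.00981, adjusted 0.191 and 0.0981, n = 30). With the 2 most extreme mice removed it was 0.464. Adipoq and Cfd, both secreted, had r = 0.435 and rho = 0.435 (permutation p = 0.0360 and 0.0394, adjusted 0.191 and 0.197), and 0.401 without 2 mice. Pparg had negative r with each of the other 4, from -0.39 to -0.10 (permutation p adjusted 0.208 to 0.764). The sign was not stable for 2 of them. With Fabp4, rho was 0.0919 and r in the earlier mice 0.415, and with Adipoq r in the later mice was 0.0863. With Cfd and Car3 r was negative in both date sets.

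Within the date sets the relations differed in size. In 11 later mice the r was 0.901 for Cfd and Car3, 0.847 for Fabp4 and Car3, and 0.801 for Cfd and Fabp4. In 14 earlier mice the same pairs had 0.477, 0.470 and 0.297. Over all 30 mice Fabp4 and Car3 had 0.0646, below the value in either set, and Cfd and Fabp4 had 0.353. The pairs named here had the highest r in the later mice and were named after their values were seen. The other pairs there ran from -0.581 (Fabp4 and Pparg) to 0.391 (Adipoq and Car3). No p was computed within a set, and the difference between the sets was not tested.

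The genes whose level over all 30 mice was most like that of Adipoq were all outside the adipocyte and fat metabolism lists used here. By Pearson r on log2(CPM + 1), they were Msl2 and Gm438 (both 0.619), Ifi27l2a (0.599), Cox18 (0.595), Cars2 (0.590), Slc6a18 (0.585), Aldh1a1 (0.560), Acvr2a (0.559), Slc12a7 (0.556) and Gm13306 (0.552). Cfd had 0.501 with Adipoq, Fabp4 0.377, Car3 0.152 and Pparg -0.22. The 99th percentile of r with Adipoq over all genes tested was 0.409. After the mean of each time was removed, 4 of those 10 genes remained among the 10 highest.

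Pparg was most like Adcy6 (0.659), Nudt12 (0.631), Slc4a3 (0.626), Hoxa6 (0.614) and Zfp641 (0.610). Fabp4 was most like Ndufa4 (0.684), Cmah (0.676), Hnrnpa1 (0.653), Krt4 (0.648) and Ndufs4 (0.643), among them genes of the respiratory chain and a keratin. After the mean of each time was removed, 1 of the 5 genes remained among the 5 highest for Pparg, and 1 of 5 for Fabp4. The points share libraries and depth, so these r are a description of likeness.

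Of 67 other genes of fat metabolism, adipocyte identity and progenitors that were tested, 7 were called in the F-test (10.4%), a share close to the 9.01% of all genes. Of 9 tested genes of the lipid droplet and of lipolysis, 1 passed the F-test: Abhd5, the activator of adipose triglyceride lipase (adjusted p = 0.0121), highest at 3 h (102 ± 20.1 CPM) and lowest at 7 d (56.5 ± 7.08 CPM). Plin2, the droplet coat of most cells, went from 186 ± 13.3 CPM at 0 h to 73.6 ± 40.1 CPM at 21 d without passing (adjusted p = 0.327). Pnpla2, the lipase itself, and Mgll, which splits monoglycerides, did not pass either (0.226 and 0.155). The median log2 change of the list at 21 d against 0 h was -0.68.

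Of 17 tested genes of fatty acid and triglyceride synthesis, 0 passed, and 6 had an unadjusted p under 0.05. Among them, Scd2 had a mean of 304 TPM, Dgat2 154 TPM, Acly 113 TPM and Scd1 105 TPM. Scd1, a fatty acid desaturase, had an adjusted p of 0.0779, with 332 ± 261 CPM at 24 h and 111 ± 11.2 CPM at 21 d. Of 7 genes of fatty acid and glucose uptake, 1 passed: Lpl, lipoprotein lipase, highest at 7 d (32.2 ± 10.5 CPM) and lowest at 12 h (9.74 ± 0.362 CPM), with an adjusted p of 0.0024, named after its value was seen. Fabp5, Acsl1, Lrp1 and Slc27a1, the most abundant of that list, did not pass (adjusted p of 0.583, 0.201, 0.126 and 0.991).

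The most abundant adipogenic transcription factors of the list lay far above Pparg in TPM, while others such as Ebf2 (1.121 TPM) and Zfp423 (1.56 TPM), named after their values were seen, were near it. Klf4 had a mean of 579 TPM, Cebpa 162 TPM, Cebpb 66.3 TPM and Rxra 52.0 TPM. RNA from the whole digit, in which summed keratinocyte markers were at 34837 to 118777 TPM, does not place these levels in fat cells. None of the 10 tested passed the F-test, and 1 had an unadjusted p under 0.05. Cebpa, which with PPAR gamma maintains the adipocyte, went from 127 ± 20.0 CPM at 12 h to 259 ± 115 CPM at 7 d (adjusted p = 0.264).

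Among other adipokines and receptors, 2 of 11 passed, Apln and Angptl4, named after their values were seen. Apln, which encodes apelin, was 4.61 higher on the log2 scale at 7 d than at 0 h (SE 0.71, adjusted p = 0.000179) and 3.63 higher at 21 d (SE 0.72, adjusted p = 0.0035). Angptl4, an inhibitor of lipoprotein lipase, was 3.44 higher at 7 d (SE 0.74, adjusted p = 0.0084), and at 21 d its change was 1.59 (SE 0.78, adjusted p = 0.553). Both are known in vessels and hypoxic tissue as well as in fat. The adiponectin receptors Adipor1 (128 TPM) and Adipor2 (56.0 TPM) were far above their ligand and did not pass (adjusted p of 0.359 and 0.179).

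Of 5 tested brown and beige adipocyte genes, 1 passed: Dio2, a deiodinase, at 28.7 ± 1.001 CPM at 0 h and 116 ± 43.5 CPM at 24 h (adjusted p = 0.000439). Cidea, Elovl3 and Prdm16 did not (0.244, 0.143 and 0.168), and Ucp1, Cox7a1 and Cox8b were too low to test. Of 9 progenitor genes, 2 passed, Pdgfrb and Icam1, named after their values were seen. Neither is particular to fat: Pdgfrb, also of pericytes, was highest at 21 d (79.1 ± 16.2 CPM) and Icam1, also of vessels and white cells, at 3 h (40.7 ± 19.7 CPM). The most abundant of that list, Cd24a, Ly6a, Cd34 and Pdgfra, did not pass (adjusted p of 0.486, 0.0592, 0.148 and 0.424).

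Marker lists of the other tissues of the digit stand beside the 9.01% of all genes called in the F-test. Summed dermal fibroblast markers were at 3075 to 4835 TPM at 0 h and at 13549 to 22689 TPM at 21 d, with 4 of 8 called in the F-test. Bone and cartilage markers passed in 5 of 7, macrophage markers in 4 of 9, endothelial in 3 of 11, sebaceous in 2 of 10, skeletal muscle in 0 of 9 and keratinocyte markers in 0 of 10, where 3 of the keratinocyte markers had an unadjusted p under 0.05. Sebaceous markers, lipid-rich skin glands that also use Pparg, were at 267 to 427 TPM at 0 h and 36.1 to 163 TPM at 21 d, with 1 of 10 called lower in that contrast. Within a time, the Pearson r with the mean of the sebaceous markers was -0.080 for Adipoq, 0.059 for Cfd and -0.302 for Fabp4. The permutation p adjusted over 35 relations were 0.924, 0.924 and 0.662. For Fabp4 r was -0.663 in the earlier and 0.304 in the later mice. The part of sebaceous glands in the low Adipoq, Cfd and Fabp4 levels at 21 d was not tested.

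Within a time, 0 of 35 relations between the 5 genes and 7 marker lists passed for Pearson r, and 1 passed for rank. The date set was not removed here either. Car3 and the progenitor list had r = 0.621 and rho = 0.640 (permutation p = 0.00257 and 0.00116, adjusted 0.0899 and 0.0406, n = 30). The r was 0.480 when the 2 mice with the most extreme values were removed, 0.326 in the earlier and 0.356 in the later mice. Fabp4 and the keratinocyte list had r = 0.577 and rho = 0.552 (permutation p = 0.00571 and 0.00952, adjusted 0.0999 and 0.167). Without 2 mice r was 0.486, and it was 0.132 in the earlier and 0.687 in the later mice. The largest r of Adipoq with a list was 0.231, again with the progenitor list (rho = 0.201, permutation p = 0.192 and 0.299, adjusted 0.663 and 0.742). It was 0.106 without 2 mice, -0.12 in the earlier and -0.05 in the later mice. With the endothelial list, Adipoq had an r of 0.0899 over all mice, 0.731 in the later and near 0 in the earlier mice.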

How the data were processed

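Poly(A) RNA of each digit was made into ligation-mediated libraries with 18 cycles of PCR and read as single ends of 65 bases. The authors mapped reads with Bowtie to Ensembl mouse genes and estimated abundance with RSEM 1.2.3, and the submitters' notes also name CASAVA 1.8.2 and the mm10 genome. The deposited expected counts are not normalized, and the deposited TPM values are relative to all genes of a mouse. The authors also deposited an average signal per time point, scaled by median-by-ratio normalization, which was not tested. Of the expected counts, 78.1% were whole numbers.

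The expected counts were rounded and fitted by edgeR 4.0.16 under R 4.3.3 (TMM, filterByExpr by time point with a minimum count of 10, quasi-likelihood tests, Benjamini-Hochberg over all 13793 genes kept, threshold 0.05), with all mice in 1 fit and no covariates. The genes kept held 99.9% of counts. Alternatives used DESeq2 1.42.0, limma 3.58.1 on log2(TPM + 1), other filters, a threshold of 0.01, the date set as a covariate, fewer mice, and each mouse left out. The later mice alone, and the relations with marker lists, were added after the data were seen. Permutation tests (two-sided, 100000 resamples within time points over all mice), pooled ratios and sequence searches used scipy 1.17.1, numpy 2.4.6, pandas 2.3.3 and matplotlib 3.10.9 (Python 3.11.15) and GENCODE M21 transcripts of GRCm38.

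The 8 genes and all lists were chosen with earlier results of these data known. Named genes are the 8, at most the 4 of each list with the highest mean TPM, the 10 genes most like Adipoq and the 5 most like Pparg and Fabp4. Beyond this rule, Lpl, Apln, Angptl4, Pdgfrb, Icam1, Vwf, Ebf2, Zfp423, Ucp1, Cox7a1 and Cox8b were named after their values were seen. Cebpd and Adgre1 of the lists were not analysed here. The floor was set at 3 counts. Floors and intervals cover counting error only, because PCR duplicates do not represent separate molecules. Mice of a group are separate animals, and their numbers follow the order of the samples and pair nothing.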

Additional observations from a re-analysis of the deposited data

Results flagged for a closer look

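At 7 d, the only time with more than 3 mice, 7 measures of the adipocyte genes were searched for a mouse that lay well away from its group, and 2 were found. For Plin1, the gap between the highest mouse (39 counts, mouse 3) and the next was 0.780 of the whole range of CPM. For Lep, the gap between the same mouse (30 counts) and the next (mouse 2, with 11 counts) was 0.665 of the range. For measures with a normal spread, chance alone would mark about 1 group in 20, or 0.35 of 7. Plin1 and Lep at 7 d were low counts with several mice at 0, for which that rate need not hold. The 2 found are therefore not shown to be more than chance would give. Mouse 3 also had the highest Fabp4 level at 7 d (98.97 CPM) and the fewest genes with a count of all 30 mice (12191). Mouse 2 had the highest Adipoq level at 7 d (5.40 CPM) and no Plin1 count. Neither Plin1 nor Lep entered the tests, so no call rests on these values, while the Fabp4 call between 21 d and 7 d had an adjusted p of 0.0988 without mouse 3.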

How the results depend on the processing

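The 7 fold changes that were followed through the alternatives kept their direction in all 279 results of these, and those of other genes and times were not followed. The 7, all of them drops, were chosen without a stated rule. For each, 30 of the results leave out only 1 mouse. The threshold of 0.01 uses the main fit again, so its directions could not change. Over the time course, 0 of the 5 genes were called, and the count became 1 with the date set as a covariate (Car3), 2 with DESeq2 (Fabp4 and Car3), 2 with limma on log2(TPM + 1) and 2 on log2(TPM + 0.1) (Cfd and Fabp4), and 1 with limma and no filter (Fabp4). With each mouse left out, it ran from 0 to 2. At 7 d against 0 h, 0 became 1 (Car3) with the covariate, 1 in the later mice alone, 1 with DESeq2, and 0 to 1 with a mouse left out. At 21 d against 0 h, 0 became 1 (Adipoq) with only these 2 times in the fit, 1 with DESeq2, and 0 to 2 with a mouse left out (Adipoq and Cfd, without mouse 3 of 21 d). At 21 d against 7 d, the 1 call (Fabp4) became 0 without the left-foot mice, 0 at a threshold of 0.01 and 0 with only the 2 times in the fit. It became 2 in the later mice alone and 2 with DESeq2 (Adipoq and Fabp4), and 0 to 1 with a mouse left out. The fits of the 2 times alone hold fewer mice. For the other changes the cause was not tested. Shares of all genes called under these alternatives are not given here. Counts for the remaining contrasts, for the relations between genes and for the date sets did not move. No paired analysis was possible because the labels give mice no replicate numbers. At the depth of these libraries, Plin1, Cidec and Lep could not be tested, and a level of 0 allows up to 0.193 to 1.084 CPM.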
